A study of Arabidopsis thaliana with 9 samples.

Results

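In Arabidopsis thaliana rosettes, 75 nuclear genes had high transcript signals in the accession Col, low ones in the accession C24 and levels near the mean of both in their F1 hybrid. They were found among 13367 probe sets that the array annotation assigns to 1 nuclear gene each (13217 genes). A gene was taken when its mean signal in Col was at least 3 times that in C24 and at least 200, when the lowest Col array lay above the highest C24 array, and when F1 stood at a position from 0.25 to 0.75 between its parents. The position is the linear difference of F1 from Col divided by that of C24 from Col, so that 0 is the Col mean, 1 the C24 mean and 0.5 the additive level. Genes whose symbol begins with CYP or UGT, and NAI2, PYK10, QQS, DFR, AT4G19500, AT4G16880 and AT5G45500, were left out by name, which removed 7 of the 82 genes that met the numerical criteria. Each of the 75 genes was represented by 1 probe set that met them.

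The samples were whole rosettes harvested 15 days after sowing on MS agar: F1 plants of the cross written C24xCol, the inbred parent Col (Col-0) and the inbred parent C24, with 3 biological replicates of each and 1 array per replicate. All 3 groups are unmodified genotypes with no treatment named in the labels, the parents differ throughout the genome, and neither the seed parent nor the number of plants per sample is stated. Values are MAS5 signals as the submitters deposited them, linear intensity values with 1 per probe set and array, scaled so that the trimmed mean of each array was 500.049 to 500.054 (2% trimmed at either end). Array medians ran from 158.5 to 174.4. The 4 green-leaf marker genes measured, of 12 listed, had signals of 11866 to 41461 and ranked above 99.3% of probe sets, and their summed signal was 100392 to 101728 in F1, while Col had 99007 to 114536 and C24 had 83706 to 86945. The pollen marker measured, 1 of 6 flower and pollen genes listed, stayed at 1.90 to 24.9. Of 6 root genes listed 2 were measured, with a summed signal of 1834 to 2123 in F1, 2500 to 2958 in the Col samples and 88.0 to 174 in the C24 samples; EXPA7, a root-hair gene, stayed near the bottom of the scale, and the sum is nearly all PYK10. PYK10 itself met the numerical criteria above (position 0.281) and was left out by name, so the root sum is a description. The part of these sums in the differences below was not tested.

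An F1 plant carries 1 gene copy from each parent, and where each copy yields what it yields in its own inbred line, the transcript level of the hybrid lies at the mean of the parents. Such additive transcripts are the common reference against which hybrid-specific expression is judged in plants. A microarray signal sums transcripts of both copies and does not tell them apart, and in a whole rosette fewer cells of a type and less RNA per cell cannot be told apart either. The genes were chosen by these same Col, C24 and F1 signals, so their levels in these comparisons are descriptions and carry no test.

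F1 means of the 75 genes ran from 124 to 4853 with a median of 360, Col means from 216 to 6564 (median 670) and C24 means from 4.36 to 1624 (median 121). The ratio of Col to C24 had a median of 4.66 and reached 149. It lay between 3 and 5 in 41 genes, between 5 and 10 in 20 and at 10 or more in 14. F1 stood at 70.1% to 127.9% of the mid-parent level, the mean of both parents' linear signals, with a median of 99.7%. The median position was 0.503. It was 0.505, 0.503 and 0.495 on F1 arrays 1, 2 and 3 (mean 0.501 ± 0.00502, SD, n = 3), although the window of the choice keeps this median away from either parent. Within the window, 20 genes lay below 0.4, 43 between 0.4 and 0.6 and 12 above 0.6.

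**Figure D1:**
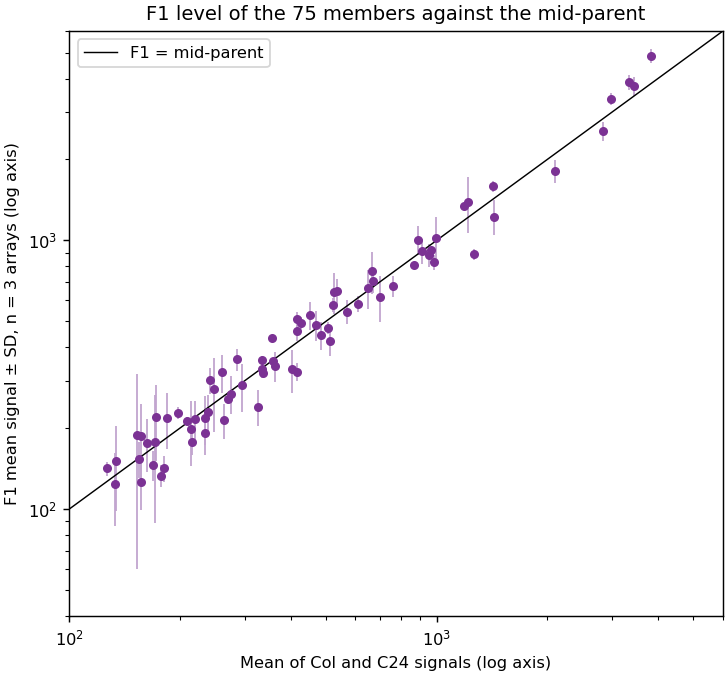
F1 mean signal ± SD over 3 arrays (vertical log axis) against the mean of the Col and C24 signals (horizontal log axis) for the 75 genes, each point being 1 gene. The points lie near the line of equality over the whole range of signal, as the window of the choice requires, with F1 at 70.1% to 127.9% of the mid-parent level.

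Of the 75 genes, 62 have only a locus code in the annotation and 13 have a name of their own (17.3%, against 11.1% of all genes of single-gene nuclear probe sets). The 13 named genes serve several parts of the cell, some of them shared, and their signals on every array are given first.

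A pair of named genes encodes mitochondrial enzymes of amino acid breakdown. ALDH6B2 (AT2G14170) encodes methylmalonate semialdehyde dehydrogenase, an enzyme of valine breakdown. Its signal was 792, 1165 and 1112 in F1 beside 1509, 1720 and 1497 in Col and 411, 436 and 393 in C24. F1 arrays lay between the parents without overlap, at a position of 0.476 ± 0.174 (SD, n = 3 F1 arrays), and Col was 3.81 times C24. ETFBETA (AT5G43430) encodes the beta subunit of the electron transfer flavoprotein, which takes electrons from dehydrogenases of branched-chain amino acid breakdown. It read 489, 490 and 600 in F1, compared with 765, 653 and 805 in Col and 161, 133 and 187 in C24. F1 was on the Col side of the mid-parent, at a position of 0.369 ± 0.110, and its highest array was still below the lowest Col array.

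In log2 Col minus C24, the other genes of that pathway lay between -0.55 (MCCB) and 0.39 (MCCA), against 1.93 for ALDH6B2 and 2.22 for ETFBETA. Of 7 further genes of branched-chain amino acid breakdown that were tested, 0 were higher in Col in limma at an adjusted p threshold of 0.05 and 1 was higher in C24, against 15.2% and 15.7% of the 13648 probe sets tested; at an unadjusted p below 0.05 the counts were 1 and 2. The median of the 7 was -0.01, against -0.03 over all probe sets tested. The gene higher in C24 was MCCB, a subunit of methylcrotonoyl-CoA carboxylase in leucine breakdown, at 1177 ± 195 in F1, while Col had 826 ± 131 and C24 had 1201 ± 76.7 (SD, n = 3 arrays each; log2 Col minus C24 -0.55, SE 0.14, limma adjusted p = 0.00659). ETFALPHA, which encodes the partner subunit of ETFBETA, stood at 497 ± 40.8 in F1 beside 455 ± 55.1 in Col and 457 ± 28.3 in C24 (log2 Col minus C24 -0.01, SE 0.13, limma adjusted p = 0.952). ETFQO, the oxidoreductase that accepts electrons from the flavoprotein, was at 261 ± 60.2 in F1, compared with 266 ± 30.7 in Col and 280 ± 30.8 in C24 and did not pass (limma adjusted p = 0.796). MCCA, the partner subunit of MCCB, was called higher in Col after median centring (limma adjusted p = 0.0296) and quantile normalization (0.0344) but not as deposited (0.0693).

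Among 7 other aldehyde dehydrogenases tested, 1 was higher in Col and 2 in C24, with a median log2 Col minus C24 of -0.20. ALDH3F1 was the one higher in Col, with 1775 ± 51.0 in F1, compared with 2239 ± 260 in Col and 1664 ± 149 in C24 (log2 Col minus C24 0.43, SE 0.10, limma adjusted p = 0.00583). ALDH2C4, an enzyme of ferulate and sinapate synthesis, was at 2573 ± 101 in F1 beside 1737 ± 238 in Col and 3970 ± 270 in C24 (log2 Col minus C24 -1.20, SE 0.10, limma adjusted p = 3.42e-07). F1 was above Col and below C24 for ALDH2C4 (log2 differences 0.58 and -0.62, limma adjusted p = 0.00161 and 0.000666), so an intermediate F1 level was also found here with C24 as the higher parent. The other gene higher in C24 was ALDH10A9 (log2 Col minus C24 -0.48, limma adjusted p = 0.00245).

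BETA-VPE (AT1G62710), a cysteine protease that processes proteins in vacuoles, had signals of 321, 391 and 311 in F1, while Col had 579, 628 and 610 and C24 had 139, 129 and 96.0. F1 lay clear of both parents at a position of 0.547 ± 0.0898. The related GAMMA-VPE, the vacuolar processing enzyme of vegetative tissue, went the other way between the parents, with 2892 ± 605 in F1 beside 2792 ± 213 in Col and 4127 ± 134 in C24 (log2 Col minus C24 -0.57, SE 0.13, limma adjusted p = 0.00286). GAMMA-VPE was the only other gene of this family tested.

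scpl42 (AT5G42240) belongs to the serine carboxypeptidase-like proteins, some of which act as acyltransferases. Signals were 472, 484 and 519 in F1 and 843, 765 and 807 in Col, against 76.5, 3.81 and 69.4 in C24. The lowest C24 array was far below the other two, while F1 kept a narrow spread at a position of 0.415 ± 0.0326. Of 13 other tested genes of the family, 3 were higher in Col and 3 in C24, with a median log2 difference of -0.31. At an unadjusted p below 0.05 the counts were 3 and 7, and the share of all probe sets at that threshold was not counted. SCPL49 (log2 Col minus C24 -0.32, limma adjusted p = 0.0515) was called higher in C24 with a replicate block (0.0170) and 3 other settings. scpl48 was the one with the largest excess in Col, with 787 ± 97.7 in F1, compared with 1116 ± 35.9 in Col and 634 ± 98.7 in C24 (log2 Col minus C24 0.83, SE 0.13, limma adjusted p = 0.000182). scpl46 was at 436 ± 75.5 in F1, while Col had 361 ± 34.5 and C24 had 609 ± 61.6 (log2 Col minus C24 -0.76, SE 0.15, limma adjusted p = 0.00108). The call of SCPL45 (log2 Col minus C24 0.59), the third higher in Col beside scpl48 and scpl25 (0.71), was lost without Col replicate 3 (limma adjusted p = 0.0523).

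JAL22 (AT2G39310) encodes a jacalin-related lectin of the group that associates with beta-glucosidases of endoplasmic reticulum bodies, compartments that hold defence enzymes. It read 555, 446 and 453 in F1 beside 668, 915 and 1066 in Col and 56.0, 57.2 and 45.5 in C24. Col exceeded C24 16.7-fold and F1 stood at 0.480 ± 0.0734. JAL23, 2 places away in the gene order, was lower in Col, with 546 ± 85.0 in F1, compared with 345 ± 79.2 in Col and 725 ± 65.3 in C24 (log2 Col minus C24 -1.09, SE 0.17, limma adjusted p = 0.000146).

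JAL33, a lectin of the same group, met the parental criteria as well (log2 Col minus C24 2.74, SE 0.17) and was left out by its F1 position, so that its values are a description. It stood at 748 ± 33.1 in F1, while Col had 543 ± 156 and C24 had 79.5 ± 5.03, with F1 above both parents' means. JAL34 was at 1449 ± 84.0 in F1 beside 1469 ± 125 in Col and 1432 ± 27.4 in C24 and did not pass between the parents (log2 Col minus C24 0.03, limma adjusted p = 0.833). Among the 5 other tested genes of the endoplasmic reticulum body programme, 3 were higher in Col and 1 in C24, with a median log2 difference of 2.74. The 3 were JAL33, NAI2 and PYK10, of which NAI2 and PYK10 were set apart by name in the choice of the genes; all 3 met its parental criteria, so that their excess in Col is no independent result.

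VPS2.2 (AT5G44560) encodes a subunit of ESCRT-III, the complex that buds vesicles into multivesicular bodies. Its signal was 221, 324 and 320 in F1, compared with 474, 443 and 534 in Col and 86.3, 94.7 and 136 in C24. F1 replicate 1 lay nearer to C24 than the other F1 arrays, and the position was 0.517 ± 0.155. VPS2.1, the close relative of VPS2.2, stood at 1341 ± 59.8 in F1, while Col had 1052 ± 148 and C24 had 1182 ± 75.8 (log2 Col minus C24 -0.18, limma adjusted p = 0.261). Among 8 other tested genes named VPS, 0 were higher in Col and 2 were higher in C24, VPS60.1 (log2 Col minus C24 -0.54, limma adjusted p = 0.0277) and VPS46.2 (-0.27, limma adjusted p = 0.0367). At an unadjusted p below 0.05, 0 were higher in Col and 3 in C24, and the median of the 8 was -0.18. Neither call was stable: that of VPS60.1 was lost without Col replicate 1 or 2 or C24 replicate 2 or 3 (limma adjusted p = 0.0726 to 0.127), and that of VPS46.2 without any of the Col or C24 arrays (0.0512 to 0.118) and after median centring (0.150).

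CHX20 (AT3G53720) encodes an endosomal cation/H+ exchanger that acts in guard cells, the cells that open and close stomata. Signals were 267, 256 and 198 in F1 beside 551, 591 and 573 in Col and 111, 73.1 and 59.0 in C24. CHX20 was among the genes nearest to C24, with F1 at 73.7% of the mid-parent and a position of 0.675 ± 0.0764. The guard-cell transcription factor gene FAMA (FMA in the annotation) was at 215 ± 36.4 in F1, compared with 205 ± 64.1 in Col and 171 ± 32.9 in C24 and did not pass between the parents (log2 Col minus C24 0.22, limma adjusted p = 0.543). No other gene of the CHX family was tested.

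HTB2 (AT5G22880) encodes a histone H2B, a core protein of the nucleosome. It was at 972, 796 and 884 in F1, while Col had 1570, 1573 and 1502 and C24 had 359, 310 and 385. All 3 groups were tight and separate, with Col 4.41 times C24 and F1 at 0.555 ± 0.0735. Of 3 other H2B genes tested, HTB4 was higher in Col, with 3401 ± 877 in F1 beside 5225 ± 216 in Col and 2873 ± 372 in C24 (log2 Col minus C24 0.87, SE 0.14, limma adjusted p = 0.000228), as was HTB11 (log2 Col minus C24 0.44, SE 0.09, limma adjusted p = 0.00183). HTB1 stood at 793 ± 101 in F1, compared with 943 ± 111 in Col and 980 ± 30.4 in C24 and did not pass (limma adjusted p = 0.748). Beside these stands a log2 Col minus C24 of 2.15 for HTB2, which was chosen for that difference.

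AGL87 (AT1G22590) belongs to the MADS-box transcription factors. Its signals were 727, 623 and 587 in F1, while Col had 983, 974 and 977 and C24 had 83.8, 113 and 75. The Col arrays of AGL87 had the smallest relative spread of all 75 genes, 0.470% of their mean, and F1 lay at 0.374 ± 0.0816. Of 4 other AGAMOUS-like genes tested, AGL24, a flowering promoter, was higher in Col, with 132 ± 16.0 in F1 beside 246 ± 34.9 in Col and 150 ± 28.4 in C24 (log2 Col minus C24 0.72, SE 0.20, limma adjusted p = 0.0131); the call was lost without C24 replicate 2 or Col replicate 1 (limma adjusted p = 0.0524 and 0.0649). F1 was also lower than Col for AGL24 (log2 difference -0.89, limma adjusted p = 0.00895) and did not pass against C24 (log2 difference -0.17, limma adjusted p = 0.630).

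UF3GT (AT5G54060) encodes a glycosyltransferase that adds a sugar to anthocyanins, the red pigments of stressed leaves. UGT79B1 is a synonym of UF3GT in RefSeq, and the gene was kept because the symbol of the annotation does not begin with UGT. It read 147, 124 and 154 in F1, compared with 282, 299 and 288 in Col and 93.4, 72.9 and 47.5 in C24, with F1 nearer to C24 at a position of 0.678 ± 0.0732. Of the 4 other tested genes of anthocyanin and flavonoid synthesis, 3 were higher in Col, UGT78D1, DFR and AT4G14090, and the median log2 difference was 1.46. The fourth, UGT78D2, had a log2 difference of 0.31 and missed the threshold (limma adjusted p = 0.0501), and it was called higher in Col after median centring (0.0218), after quantile normalization (0.0223), with a replicate block (0.0497) and under 4 other settings. At an unadjusted p below 0.05 all 4 were higher in Col. UGT78D1 and DFR had met the parental criteria and were left out by name, so that their excess in Col is a description. UGT78D1, a flavonol glycosyltransferase gene, was at 675 ± 124 in F1, while Col had 1591 ± 134 and C24 had 99.4 ± 21.6 (log2 Col minus C24 4.02, SE 0.16).

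The remaining named genes include a pair of enzyme genes of specialised metabolism families and a chloroplast transporter gene. 2A6 (AT1G03410), of the family of iron- and 2-oxoglutarate-dependent dioxygenases, had signals of 214, 235 and 233 in F1 beside 366, 434 and 348 in Col and 9.67, 9.41 and 14.6 in C24. The C24 arrays were near the bottom of the scale, and F1 stood at 0.420 ± 0.0314. GLC (AT1G65450, GLAUCE), of the BAHD acyltransferase family and known for a role in reproduction, read 139, 142 and 119 in F1, compared with 302, 307 and 343 in Col and 60.3, 8.59 and 45.2 in C24. F1 was nearer to C24, at 0.660 ± 0.0450. CcdA (AT5G54290), a thylakoid membrane protein that carries reducing power across the membrane for cytochrome assembly, was the brightest named gene, with 1619, 1499 and 1643 in F1, while Col had 2098, 2183 and 2401 and C24 had 562, 672 and 619. Its F1 arrays were on the Col side, at 0.398 ± 0.0477.

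**Figure D2:**
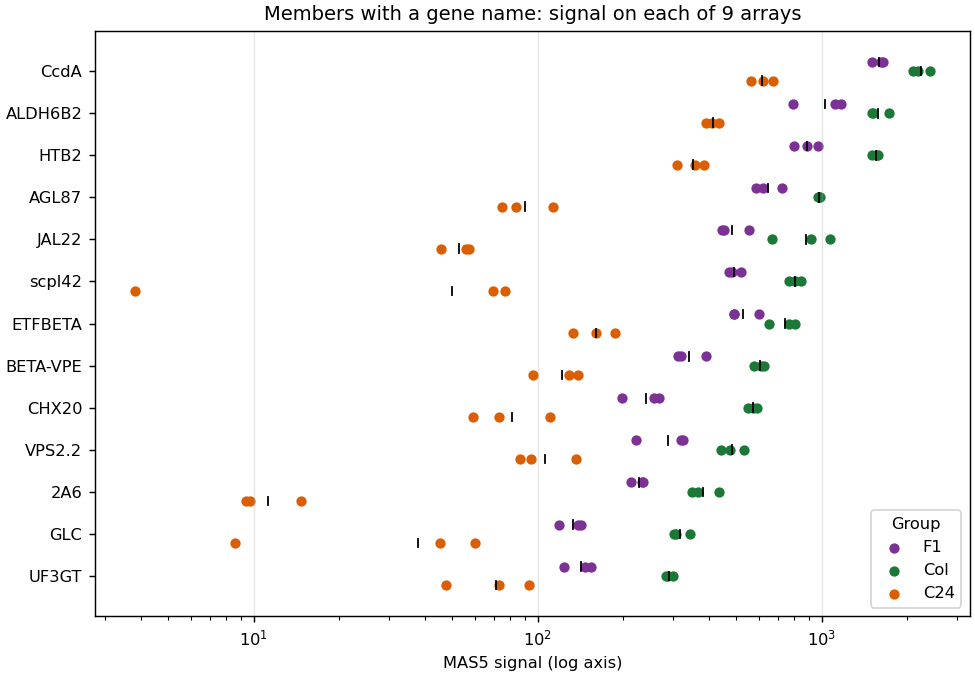
Signal of the 13 genes with a name on each of the 9 arrays (horizontal log axis), with F1, Col and C24 in separate colours and 1 point per array. In every gene the 3 F1 points lie between the Col points and the C24 points, an order found in 4.61% of all tested probe sets and favoured by the choice, and the C24 points spread widest in scpl42 and GLC.

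Across all these families and pathways, neighbours in function ranged from a strong excess in Col to an excess in C24. The lists were drawn up with earlier results of these data known. Their counts at the adjusted threshold are read beside the 15.2% and 15.7% of all tested probe sets called higher in Col and in C24. No such share was counted at an unadjusted p below 0.05, so nothing is read from the unadjusted counts. When all arrays were centred on their medians, 2605 probe sets were higher in Col and 1614 in C24 (61.7% of the calls higher in Col), against 2081 and 2139 as deposited (49.3%).

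**Figure D3:**
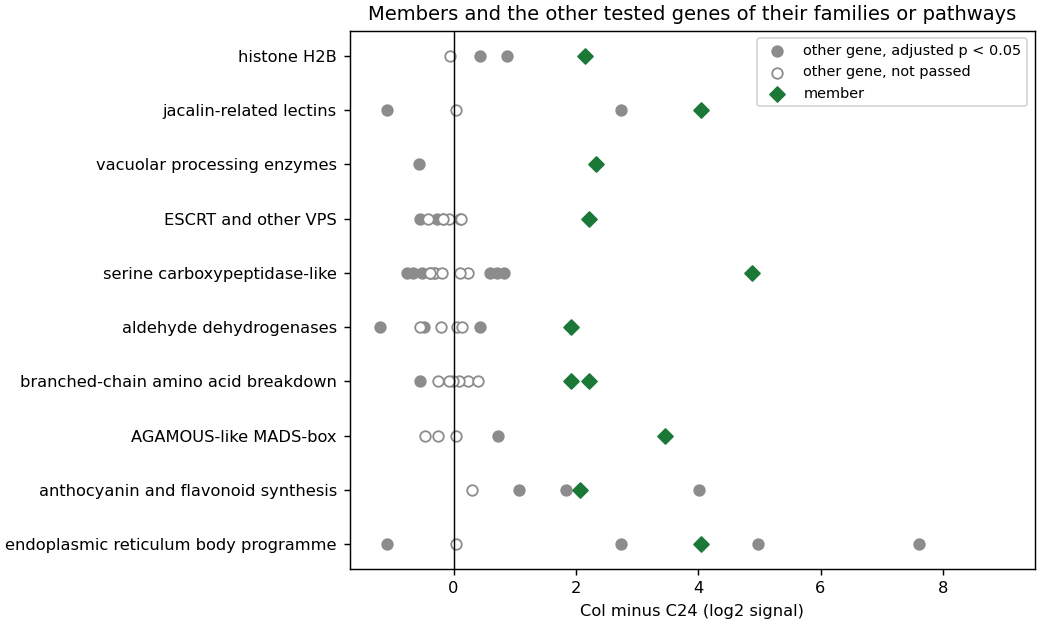
Log2 difference Col minus C24 of the named genes (diamonds) and of the other tested genes of their families or pathways (circles, filled where the limma adjusted p was below 0.05), 1 row per family or pathway. The diamonds were chosen for high Col signals, and the circles lie on both sides of 0 in 8 of the 10 rows.

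The 8 brightest genes by Col mean carry locus codes only. AT2G25450 had the highest level, with 4783, 4601 and 5175 in F1 beside 6455, 6406 and 6831 in Col and 953, 1058 and 1315 in C24. AT5G44580 followed with 3961, 4060 and 3603 in F1, compared with 5010, 5188 and 7316 in Col and 1004, 606 and 901 in C24. Both were on the Col side of the mid-parent, at positions of 0.314 ± 0.0538 and 0.393 ± 0.0480, and Col replicate 3 stood above the other Col arrays in AT5G44580.

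AT1G32220 read 3415, 3874 and 3967 in F1, while Col had 5096, 5006 and 5646 and C24 had 1342, 1824 and 1708. AT5G28750 read 3554, 3275 and 3226 in F1 beside 4589, 4646 and 4494 in Col and 1377, 1391 and 1398 in C24. These genes had the highest C24 levels of the set, 1624 ± 252 and 1389 ± 10.9, and in both F1 was nearer to Col, at 0.413 and 0.384. AT3G28220 was at 2574, 2336 and 2745 in F1, compared with 5015, 3775 and 5746 in Col and 865, 1026 and 568 in C24. Its F1 mean was 90.1% of the mid-parent.

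For AT1G13650 the signals were 1893, 1608 and 1931 in F1, while Col had 4001, 3649 and 3348 and C24 had 689, 443 and 481. AT1G62480 had 1432, 1148 and 1095 in F1 beside 2827, 2181 and 1850 in Col and 596, 544 and 578 in C24. In both, F1 was on the C24 side, at 0.593 ± 0.0565 and 0.619 ± 0.106. AT2G33850 combined a bright Col signal with a 17.6-fold ratio, with 1594, 1017 and 1565 in F1, compared with 2285, 1959 and 2668 in Col and 147, 105 and 141 in C24. Over all 75 genes Spearman's rho was -0.0198 between position and Col mean and -0.0569 between position and the log2 ratio, as a description across genes, which share the same 9 arrays.

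The largest ratios belonged to genes whose C24 signal was at the bottom of the scale. AT1G23960 had 477, 544 and 503 in F1 and 799, 773 and 903 in Col, against 6.23, 5.84 and 4.57 in C24, a 149-fold ratio. AT2G14460 had 317, 256 and 232 in F1, while Col had 488, 570 and 583 and C24 had 2.86, 4.95 and 5.27. AT1G35612 had 176, 170 and 230 in F1 beside 495, 364 and 521 in Col and 6.22, 3.73 and 15.5 in C24. In all 3 of these genes each F1 array exceeded 150, while no C24 array reached 20.

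AT3G46370 read 258, 200 and 193 in F1, compared with 421, 443 and 427 in Col and 5.65, 18.7 and 2.80 in C24, and the ratio of 47.6 became 102 without C24 replicate 2. AT4G02850 read 403, 504 and 424 in F1, while Col had 976, 830 and 1002 and C24 had 21.6, 44.6 and 36.4. AT4G20480 read 473, 422 and 369 in F1 beside 933, 964 and 1036 in Col and 56.9, 34.6 and 57.3 in C24. Their ratios were 27.4 and 19.7, beside 34.1 for 2A6. Relative spread was wider at such low signals. The standard deviation over 3 arrays had a median of 11.2% of the mean in F1, 10.7% in Col samples and 21.8% in C24. In 31 of the 75 genes the C24 mean was below 89.9, the signal under which a probe set was left out of testing when its mean over all arrays fell there, and in 5 it was below 20.

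The ratio moved by over 1.5 times on leaving out a single array in 7 genes. Without C24 replicate 3 it was 14.7 in place of 9.76 for AT4G16870, 92.5 in place of 54.2 for AT1G35612 and 9.44 in place of 5.76 for AT5G50350. Without C24 replicate 1 it was 18.1 in place of 8.71 for AT3G62950 and 8.16 in place of 5.15 for AT4G29700. Beside AT3G46370, the seventh was AT3G63340, which fell under the 3-fold threshold without Col replicate 1, at 1.83 in place of 3.15.

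A signal reports hybridisation to one probe set, and whether the C24 copy of each gene matches the probes was not tested. For 3 genes a second probe set of the same gene was on the array. The second one of 2A6 read 105, 99.0 and 115 in F1, compared with 203, 218 and 150 in Col and 44.5, 48.0 and 18.7 in C24, again in 3 separate groups with F1 at 0.550, but with a 5.14-fold ratio in place of 34.1. That of GLC read 67.5, 11.4 and 14.9 in F1, while Col had 59.9, 68.3 and 13.0 and C24 had 15.8, 18.1 and 38.4, so the groups overlapped at signals near the bottom of the scale. AT2G25870, itself at 823, 808 and 788 in F1 beside 1280, 1429 and 1287 in Col and 384, 411 and 421 in C24, had a dim second probe set at 27.1, 9.70 and 66.0 in F1, compared with 81.6, 82.1 and 86.2 in Col and 48.5, 4.28 and 35.8 in C24. There Col was 2.82 times C24 and F1 overlapped C24.

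The genes nearest to the additive level were AT5G41685, AT4G15140, AT3G44630 and AT1G73630, with positions of 0.499, 0.503, 0.506 and 0.506. AT5G41685 read 932, 998 and 806 in F1, while Col had 1295, 1647 and 1208 and C24 had 537, 368 and 410. AT1G73630 read 355, 362 and 346 in F1 beside 547, 505 and 645 in Col and 141, 110 and 195 in C24. F1 varied least in AT1G73630 among these 4, with a position SD of 0.0188.

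AT3G44630 read 305, 334 and 358 in F1, compared with 426, 540 and 549 in Col and 165, 176 and 152 in C24. AT4G15140 read 177, 129 and 155 in F1, while Col had 249, 213 and 296 and C24 had 57.3, 54.8 and 54.8. In each of these 4 genes the F1 arrays lay below every Col array and above every C24 array, and the F1 mean was 99.3% to 100.1% of the mid-parent.

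At the Col end of the window stood AT3G63340 (0.272) and AT5G59770 (0.285). AT3G63340 read 334, 88.8 and 143 in F1 beside 426, 146 and 123 in Col and 56.5, 78.4 and 85.6 in C24, so that replicate 1 was high in both F1 and Col and F1 overlapped Col. AT5G59770 read 697, 516 and 716 in F1, compared with 861, 601 and 940 in Col and 293, 210 and 241 in C24, with F1 and Col overlapping as well. At the C24 end stood AT2G05540 (0.729), with 906, 912 and 838 in F1, while Col had 2141, 2145 and 1971 and C24 had 286, 654 and 378. AT4G25280 (0.719) read 311, 307 and 353 in F1 beside 655, 652 and 587 in Col and 187, 218 and 205 in C24. At that end the groups were separate, and AT2G05540 had the lowest F1 level relative to the mid-parent, 70.1%.

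The thresholds of ratio and Col mean fell among genes of like values. Just under the 3-fold ratio lay TBL26 and AT5G44050 (2.98 each), and just inside it AT1G31440 (3.00) and AT3G29280 (3.04). Col means just under 200 were those of AT3G13650 (199.6) and AT1G58150 (198.1), and just above it those of AT5G50350 (216) and AT4G19510 (225). The nearest positions outside the window were 0.249 for AT5G45430 and 0.232 for AT5G45500, which is also left out by name, at the Col end, with AT2G43535 next at 0.0863, and 0.770 for AT3G44970 and 0.928 for AT4G21870 at the C24 end.

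In 66 of the 75 genes all 3 F1 arrays were below every Col array and above every C24 array. Of the 71 genes bright enough to be tested, 63 had this order, against 4.61% of all tested probe sets, a share that the choice itself raised. The 9 exceptions were AT5G59770, AT3G19520, AT3G62950, AT3G29280, AT1G35350, AT5G33370, AT4G13630, AT3G63340 and AT1G73700, whose F1 arrays overlapped those of Col; AT1G73700 also overlapped C24. Single F1 arrays kept within the window of 0.25 to 0.75 in 65, 70 and 66 genes, and all 3 did so in 55.

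In limma, where 4 genes (AT2G14460, AT1G35612, AT3G46370 and AT4G13630) fell under the filter on low signals, the 71 tested were all higher in Col than in C24, as the choice required, against 15.2% of all probe sets tested. F1 was lower than Col in 50 of the 71 (5.08% of all) and higher than C24 in 69 (7.55% of all). F1 was called above the mid-parent in 0 and below it in 0 of the 71, against 1.68% and 1.62% of all. At an unadjusted p below 0.05 the counts were 2 and 3 of the 71, and the share of all probe sets at that threshold was not counted. The window of the choice limits how far F1 can lie from the mid-parent. Nothing is read from these counts because the same contrasts chose the genes. The call between Col and C24 was lost under some settings in 1 gene, AT3G63340 (limma adjusted p = 0.154 without Col replicate 1, against 0.0275 with all arrays). The F1 calls over all probe sets shifted with scaling. Against Col, 869 were higher and 694 lower in F1 (55.6% higher), and the majority turned after median centring, to 738 higher and 813 lower (47.6%). Against C24, 1030 were higher and 921 lower in F1 (52.8%), and 1243 and 722 after median centring (63.3%).

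The same parental criteria without the window took 95 genes, names left in. F1 was in the window in 82 of them (86.3%), nearer to Col than 0.25 in 10 (10.5%) and beyond 0.75 in 3 (3.16%). In the mirror set, with C24 at least 3 times Col and the other criteria turned round, 67 of 143 probe sets were in the window (46.9%), 62 were below 0.25, on the Col side (43.4%; AT5G44820 has 2 of these, so that they represent 61 of 142 genes), and 14 were above 0.75 (9.79%). Median positions were 0.488 for the Col-high and 0.271 for the C24-high probe sets. The share in the window and the median thus differed between the sets as counted, and this difference was not tested.

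**Figure D4:**
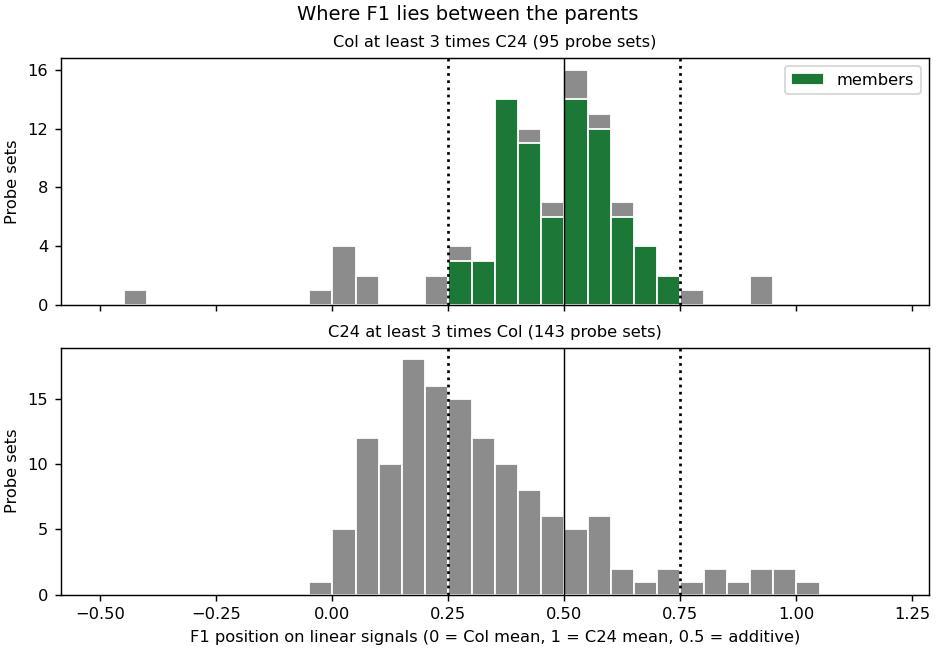
Number of probe sets by position of F1 between Col (0) and C24 (1), for those at least 3 times higher in Col (upper panel, the 75 genes in green) and for those at least 3 times higher in C24 (lower panel). The Col-high probe sets gather around 0.5 (median 0.488), the C24-high ones spread towards Col (median 0.271), and 5 C24-high ones beyond 1.2 are not drawn.

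A view of the same measure in arrays that did not enter the choice came from choosing genes on 2 replicate numbers and reading the third. Without replicates 1, 2 and 3, 75, 73 and 79 probe sets were chosen (75, 73 and 78 genes, the third set holding both probe sets of 2A6), of which 66, 67 and 66 were among the 75. In the arrays left out, Col was above C24 in all of them, the Col to C24 ratio had medians of 4.74, 4.87 and 4.51, and 60, 65 and 64 probe sets kept a ratio of at least 3. F1 lay between the parents in 71, 72 and 78 probe sets. The median position in the arrays left out was 0.494, 0.475 and 0.496, and 85.3%, 86.3% and 91.1% of the probe sets were in the window there. With 1 array per group left out these are values without a test. The shares over all probe sets in the same arrays were not counted, so the counts have no background beside them.

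**Figure D5:**
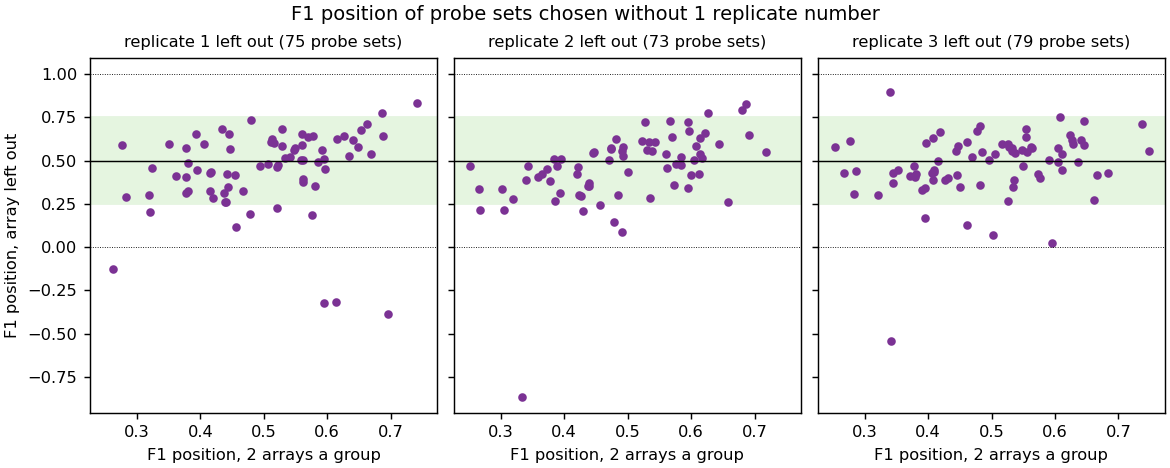
F1 position in the arrays left out (vertical axis) against the position in the arrays used for the choice (horizontal axis), 1 panel per replicate number left out and 1 point per probe set. Most points stay within 0.25 to 0.75 on the vertical axis (85.3%, 86.3% and 91.1%), and the few far below 0 are probe sets whose single F1 array exceeded the Col array.

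The 75 genes lay on all 5 nuclear chromosomes, with 22, 13, 11, 12 and 17 on chromosomes 1 to 5. These are 29.3%, 17.3%, 14.7%, 16.0% and 22.7% of the genes, against 25.8%, 16.4%, 20.6%, 14.6% and 22.6% of all genes of single-gene nuclear probe sets. RefSeq lists 73 as protein-coding (97.3%, against 92.5% of all) and 2, AT4G16870 and AT1G35612, as pseudogenes (2.67%, against 6.98%). AT4G16870 read 347, 263 and 359 in F1, compared with 502, 394 and 521 in Col and 8.61, 55.9 and 80.7 in C24. The order of the group means was required by the choice, for pseudogenes and coding genes alike. The median gene length was 2365 bases, against 2111 bases for all.

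In 3 cases 2 of the genes lay within 3 places of each other in the RefSeq gene order, which counts noncoding genes too. Next to scpl42 lay AT5G42250, with 535, 608 and 598 in F1, while Col had 920, 1005 and 981 and C24 had 288, 181 and 282. AT2G25830 read 838, 775 and 879 in F1 beside 1419, 1755 and 1522 in Col and 344, 413 and 436 in C24, and its partner was AT2G25870, described above. AT4G25260 read 352, 356 and 372 in F1, compared with 501, 559 and 552 in Col and 149, 121 and 122 in C24. F1 stood at 0.629 ± 0.0450 for AT2G25830 and 0.567 ± 0.0186 for AT2G25870, which lay close together. The other pairs lay further apart, with 0.415 for scpl42 and 0.540 for AT5G42250, and 0.437 for AT4G25260 and 0.719 for AT4G25280. A further 3 genes, AT5G45510, AT4G16870 and AT4G19510, lay beside AT5G45500, AT4G16880 and AT4G19500, which were left out by name and are not among the 433 neighbours.

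Neighbours that are not among the 75 were compared between the parents as well. Of 433 other genes within 3 places of the 75, 67 were tested, and 17 of these were higher in Col (25.4%, against 14.3% of the 7259 single-gene nuclear probe sets tested) and 10 in C24 (14.9%, against 15.4%). At least 2-fold differences were found in 5 and 3 of them. One of the 17, AT1G62510, had itself met the parental criteria and was outside the 75 only by its F1 position, so its parental difference is a description. AT1G62510, near AT1G62480, had 4514 ± 609 in F1, while Col had 4531 ± 901 and C24 had 778 ± 511 (log2 Col minus C24 2.73, SE 0.31), and the F1 and Col means differed by less than their SDs. AT2G21860, near AT2G21830, had 899 ± 125 in F1 beside 1374 ± 142 in Col and 481 ± 55.6 in C24 (log2 Col minus C24 1.52, SE 0.13, limma adjusted p = 3.58e-07).

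AT1G35340, next to AT1G35350, was at 1129 ± 131 in F1, compared with 1725 ± 119 in Col and 648 ± 29.4 in C24 (log2 Col minus C24 1.41, SE 0.11, limma adjusted p = 1.14e-07). In the other direction, AT1G03400, next to 2A6, had 618 ± 176 in F1, while Col had 469 ± 14.6 and C24 had 971 ± 58.3 (log2 Col minus C24 -1.05, SE 0.16, limma adjusted p = 0.000128). GSTU26, a glutathione transferase gene near AT1G17160, was at 686 ± 47.2 in F1 beside 207 ± 42.9 in Col and 888 ± 31.2 in C24 (log2 Col minus C24 -2.12, SE 0.14, limma adjusted p = 2.57e-08). Adjacent genes thus included both the same and the opposite parental direction, and whether the neighbour share differs from that of all genes was not tested.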

How the data were processed

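Total RNA of 9 rosette samples was hybridised to 1-colour arrays. Intensity values were deposited by the authors as linear signals, which the submitters' processing notes credit to MAS5 with no version or settings stated. Of 22810 probe sets, 64 controls were set aside; 13513 had 1 gene, 503 several and 8730 none in the platform annotation. RefSeq (assembly TAIR10.1) gave names, chromosomes and gene order only. Signals were log2-transformed without rescaling, and probe sets with a mean below the 40th percentile (6.49) were left out. limma 3.58.1 (R 4.3.3) fitted a mean per group over the 9 arrays (trend, Benjamini-Hochberg over 13648 probe sets, two-sided, threshold 0.05), tested on simulated data. For the limma comparison the mid-parent was the mean of both parents' levels, each being the log2 mean turned back to the linear scale, with a delta-method standard error. Percentages of the mid-parent and positions used means of the linear signals instead. Scaling is to a common mean, so differences are relative to the whole array, and the number of arrays limits the precision. The p-values set a group difference against limma's estimate of the spread between replicate samples, shared by the 3 groups.

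The genes, families and lists were chosen with earlier results of these data known. Array values are given for the 8 highest Col means and the 8 highest ratios, the 4 positions nearest 0.5, the 2 nearest either end of the window, the 2 brightest of each functional class with at least 2 genes, pairs within 3 places and genes with several probe sets; genes with a name were added with values known. Further family genes and neighbours named were chosen after their values were seen. Alternatives were other scalings, filters, thresholds, no trend, a replicate block and leaving out arrays.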

Additional observations from a re-analysis of the deposited data

How the results depend on the processing

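The 75 genes numbered 85 after quantile normalization and 89 after median centring, each including all 75, 80 with group medians (69 shared), 54 and 95 with a Col mean of at least 400 and 100, and 72 to 79 on leaving out 1 array or 1 replicate number. The count was 183 with a ratio of at least 2, 49 with a ratio of at least 4, 43 with positions from 0.4 to 0.6, and 49 (48 shared) with positions computed from log2 signals. The share of parental candidates in the window was 83% to 87.4% on leaving out 1 array. The median position of 0.503 became 0.508 after quantile normalization, 0.512 after median centring and 0.472 to 0.516 on leaving out 1 array, and the median log2 difference of 2.22 became 2.17 to 2.29. Counts over all probe sets on leaving out 1 array were 3348 to 4348 for Col against C24 (4220 with all), 1021 to 1521 for F1 against Col (1563 with all; 1021 without Col replicate 2), 1362 to 1964 for F1 against C24 (1951 with all) and 284 to 422 for the mid-parent (450 with all; 284 without F1 replicate 3), the last being 264 without an intensity trend; the cause was not tested. Neighbours higher in Col numbered 14 to 19 on leaving out 1 array (17 with all) and 11 of 42 with a filter at the 60th percentile, which tests fewer genes. After median centring they numbered 22 of 67 (32.8%, against 17.8% of all single-gene nuclear probe sets tested). Without a filter they numbered 14 of the same 67 (20.9%). The share of all single-gene nuclear probe sets was then 7.46%. That share includes dim probe sets, whereas the 67 had all passed the main filter, so these shares are not comparable. Of 1022 Col and C24 differences of the genes under other settings, 1018 kept their call, the exceptions being AT3G63340. No called difference of a single gene reported here changed sign, but majorities among all calls did: Col was the higher parent in more calls (in place of 2081 against 2139) after median centring (2605 against 1614), quantile normalization (2158 and 1845), a filter at the 60th percentile (1644 and 1563) and without any 1 C24 array (1766 to 1793 against 1680 to 1696), F1 was lower than Col in more calls after median centring (813 against 738 higher, in place of 694 against 869), and F1 was below the mid-parent in more calls (in place of 221 against 229 above) with the replicate block (310 and 285) and without F1 replicate 1 (177 and 153) or 2 (194 and 171). Low C24 signals limit the ratios.

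The main fit did not pair samples by replicate number. Same-numbered deviations from the group means correlated at -0.0015 to 0.117 between groups, and different-numbered ones at -0.109 to 0.0178. Most samples correlated best with their own number. Between Col and C24, the arrays numbered 2 did not (-0.0015, against 0.0104 and 0.0178 with other numbers). Whether same-numbered samples share an effect was not tested. With the replicate number as a block, 4471 probe sets differed between Col and C24 (4220 without it) and 1844 between F1 and Col (1563). For F1 against C24 the count was 2255 (1951), for the mid-parent 595 (450), and 18 neighbours were higher in Col (17).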
